A study of Homo sapiens with 6 samples.

Results

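A set of 10 genes named for growth arrest or for cyclin-dependent kinase inhibition was followed, out of 58735 genes listed in the deposited table. The set held the stress genes GADD45A, GADD45B and GADD45G and the GADD45-binding protein gene GADD45GIP1. It also held the Cip/Kip inhibitors CDKN1A, CDKN1B and CDKN1C, the INK4 inhibitors CDKN2C and CDKN2D, and the phosphatase gene CDKN3. All 10 were found by symbol, once each. GADD45B was chosen by its measured response, as the largest increase with celastrol in an earlier ranking of these same libraries, and the other 9 were added as relatives by name. RNA was sequenced from cells labelled SKM-1, a line established from a human myeloid leukaemia, after 48 h with celastrol (3 libraries), a plant triterpenoid, or with its solvent control DMSO (3 libraries). By their labels, all 6 libraries came from the same line in the same medium, and the sources used here do not name the celastrol dose. The marker genes measured went partly against that label: several myeloid markers were at or near 0 reads and erythroid genes were abundant in all 6 libraries, and the identity of the line was not tested. No label ties the 3 libraries of a treatment to cultures grown apart. The p-values therefore cover the scatter among the 6 libraries alone, and that scatter may be technical.

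GADD45 proteins are small nuclear proteins made under stress. They bind the kinase MAP3K4, which switches on the p38 and JNK kinases, and they also bind PCNA, the kinase CDK1 and the inhibitor p21. CDK inhibitors stop the cyclin-dependent kinases that drive the cell cycle: Cip/Kip proteins bind cyclin and kinase together, while INK4 proteins hold CDK4 and CDK6 apart from their D-type cyclins. GADD45B is known as a target of NF-kappaB and TGF-beta signalling.

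The sequence upstream of a gene's start is shown for 2 members that lay higher with celastrol, GADD45B and CDKN1A, for GADD45GIP1, which also rose, and for GADD45G, the paralogue nearest to silence. Windows came from RefSeq on GRCh38.p14, which held 10 windows for 8 of the 10 members, each with 250 bases before a listed start. The lines below stop short of any exon of the gene in GENCODE release 29 and read 5′ to 3′ on the gene's strand. For CDKN1A the listed RefSeq start lies downstream of the GENCODE gene start. Its line therefore falls inside the GENCODE gene span (36676460 to 36687339), outside the exons. The upstream end of that line also overlaps the gene DINOL (36677609 to 36678559) on the other strand. Capitals mark matches on either strand to any of 12 short motifs. Core promoter motifs were spelled TATAAA for the TATA box, CCAAT for the CCAAT box and GGGCGG for the GC box. Stress motifs were spelled TGANTCA for AP-1, TGACGTCA for CRE, TGATGNAA for C/EBP-ATF, TGACNNNGC for the antioxidant element and GGNNNTTCC for kappaB. The others were TTTNNCGC for E2F, TTTGAA for the CHR, GTCTAGAC for SMAD and CACGTG for the E-box.
GADD45B, chr19:2475877-2476121, plus strand: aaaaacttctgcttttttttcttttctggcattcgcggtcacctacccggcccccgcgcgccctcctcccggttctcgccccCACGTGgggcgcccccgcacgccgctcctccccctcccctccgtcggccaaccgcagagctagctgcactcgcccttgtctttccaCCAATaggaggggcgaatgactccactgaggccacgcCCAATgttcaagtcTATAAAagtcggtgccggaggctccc
GADD45G, chr9:89604762-89605011, plus strand: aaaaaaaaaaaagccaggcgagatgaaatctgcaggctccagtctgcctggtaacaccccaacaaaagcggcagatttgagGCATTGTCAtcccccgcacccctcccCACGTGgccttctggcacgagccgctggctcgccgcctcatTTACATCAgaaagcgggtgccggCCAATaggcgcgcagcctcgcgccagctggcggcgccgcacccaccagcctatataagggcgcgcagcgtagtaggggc
CDKN1A, chr6:36678464-36678657, plus strand: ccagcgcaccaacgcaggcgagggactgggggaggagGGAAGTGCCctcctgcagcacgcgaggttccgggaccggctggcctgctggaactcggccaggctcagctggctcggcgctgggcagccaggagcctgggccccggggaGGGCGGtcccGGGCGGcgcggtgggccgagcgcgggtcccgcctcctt
GADD45GIP1, chr19:12957237-12957473, minus strand: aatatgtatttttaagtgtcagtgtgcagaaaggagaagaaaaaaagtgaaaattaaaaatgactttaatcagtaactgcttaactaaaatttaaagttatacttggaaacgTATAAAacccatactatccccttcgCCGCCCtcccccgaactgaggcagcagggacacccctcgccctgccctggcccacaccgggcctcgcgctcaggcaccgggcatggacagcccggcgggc

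GADD45B had a TATA box from base 31 to base 26 before its start, a motif found in 10.7% of 35116 such windows. It also had a CCAAT box at bases 82 to 78 and another at bases 45 to 41 (any CCAAT box, 32.0% of windows), and an E-box at bases 168 to 163 (6.34% of windows). GADD45G shared the CCAAT box and the E-box and also matched the C/EBP-ATF motif (3.14% of windows) and the antioxidant element (10.9%). Windows not shown held some of these too: a CCAAT box in CDKN1B, CDKN2C, CDKN2D and CDKN3, an E-box in CDKN2C and the antioxidant element in CDKN1B. The letters TATATAA near the start of GADD45G, visible in its line, differ from TATAAA and so were not marked. The lack of a marked TATA box there rests on that spelling. The CDKN1A window was GC-rich, at 76.4% G and C, with 4 GC boxes, 2 of them overlapping (any GC box, 42.6% of windows), and a kappaB match at bases 213 to 205 (17.1% of windows). Only the 2 GC boxes farther from the start are in the stretch shown. GADD45GIP1 matched the letters TATAAA at bases 138 to 133, much farther from its start than the match in GADD45B, and held 1 GC box. In these windows no member matched AP-1 (6.57% of windows), CRE (1.65%) or SMAD (0.182%) as spelled here. A match is a run of letters and not a shown binding site.

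Levels are in FPKM, the fragments counted for a fixed length of gene and a fixed library total, so they can be set side by side between genes. With DMSO the order of mean level ran GADD45A, CDKN2C, GADD45GIP1, CDKN1B, CDKN3, CDKN1C, CDKN2D, CDKN1A, GADD45B and GADD45G, from 59.1 down to 0.175 FPKM. Only CDKN2D and CDKN1A overlapped as neighbours in that order. With celastrol GADD45B moved from rank 9 to rank 6, between CDKN3, whose libraries it overlapped, and CDKN1C. CDKN2C and GADD45GIP1 also overlapped there, at means of 41.2 and 39.1 FPKM. The reads behind each gene ranged from 1 to 16 per library for GADD45G and from 25 to 431 for GADD45B, while GADD45A had 1439 to 1913 and CDKN2C 1259 to 2305.

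**Figure D1:**
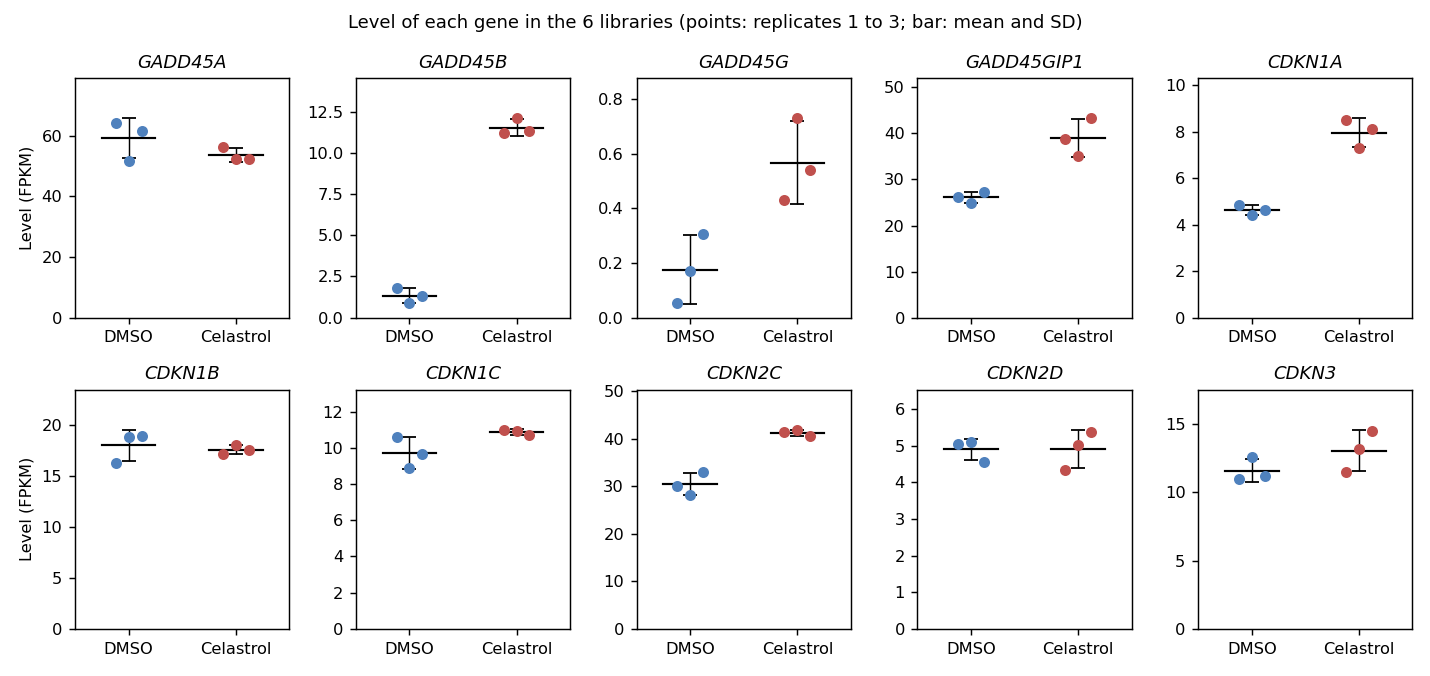
Level in FPKM (y axis, from 0, own scale per gene) of the 10 genes in the 3 DMSO and 3 celastrol libraries; points are replicates 1 to 3, the long bar is the mean and the whiskers are 1 SD. The celastrol points lie above all DMSO points for GADD45B, GADD45G, GADD45GIP1, CDKN1A, CDKN1C and CDKN2C, and the points of the other 4 genes overlap.

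GADD45B (chromosome 19, 2476122 to 2478259, plus strand; ENSG00000099860) stood at 11.2, 12.1 and 11.3 FPKM in celastrol replicates 1 to 3. In DMSO replicates 1 to 3 it stood at 1.82, 0.868 and 1.32 FPKM. The groups were far apart, with the lowest celastrol library about as high as the rest of its group and DMSO replicate 2 the lowest of all. The celastrol mean was 11.5 ± 0.516 FPKM and the DMSO mean 1.34 ± 0.476 (SD, n = 3 libraries each), an 8.64-fold difference of FPKM. On the log2(FPKM + 0.1) scale, which understates the change of low genes, the difference was 3.07. These values chose the gene, so they are a description and no test of it is given. Of the 1463 genes in that ranking (protein-coding, called higher, groups apart, celastrol mean of at least 5 FPKM), GADD45B came first and TEX19 next, with log2 fold changes of 3.07 and 2.52. Among all 12685 genes tested, GADD45B had rank 10 by log2 fold change.

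GADD45A (chromosome 1, 67685061 to 67688338), a paralogue of GADD45B, was the most abundant of the 10 genes in both treatments. Its celastrol libraries held 56.1, 52.3 and 52.4 FPKM and its DMSO libraries 64.2, 51.7 and 61.4. DMSO replicate 2 lay below all celastrol libraries and the other two DMSO libraries lay above them. The log2 fold change was -0.13 (95% interval -0.35 to 0.08, adjusted p = 0.308, limma-trend with Benjamini-Hochberg adjustment over all genes). Without DMSO replicate 2 it passed as lower, at -0.23 (adjusted p = 0.0454), and after rescaling to TPM its sign turned, to 0.11.

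GADD45G (chromosome 9, 89605013 to 89606555) was close to silent. It lay at 0.431, 0.729 and 0.540 FPKM with celastrol, on 9, 16 and 12 reads, and at 0.0525, 0.169 and 0.305 with DMSO, on 1, 3 and 6 reads. Each celastrol library exceeded each DMSO library. The summed reads, 37 against 10, gave a ratio of 3.21 (95% exact interval 1.57 to 7.24, which covers counting error only) after scaling to the library totals the authors used. The gene missed the minimum mean of 1 FPKM over the 6 libraries and was not tested there. With no filter on low values its log2 difference was 1.36 (adjusted p = 0.146).

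The summed level of the 3 GADD45 genes was 65.7 ± 1.82 FPKM with celastrol and 60.6 ± 7.03 with DMSO. GADD45B made up 16.6, 18.6 and 17.5% of that sum in celastrol replicates 1 to 3, and 2.75, 1.65 and 2.10% in DMSO replicates 1 to 3. The share of GADD45A was 81.6 ± 1.26% under celastrol and 97.5 ± 0.444% under DMSO (SD, 3 libraries each). These shares are ratios within a library, so they do not depend on how libraries were scaled to each other. GADD45A therefore remained the main transcript of the family in all 6 libraries.

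**Figure D2:**
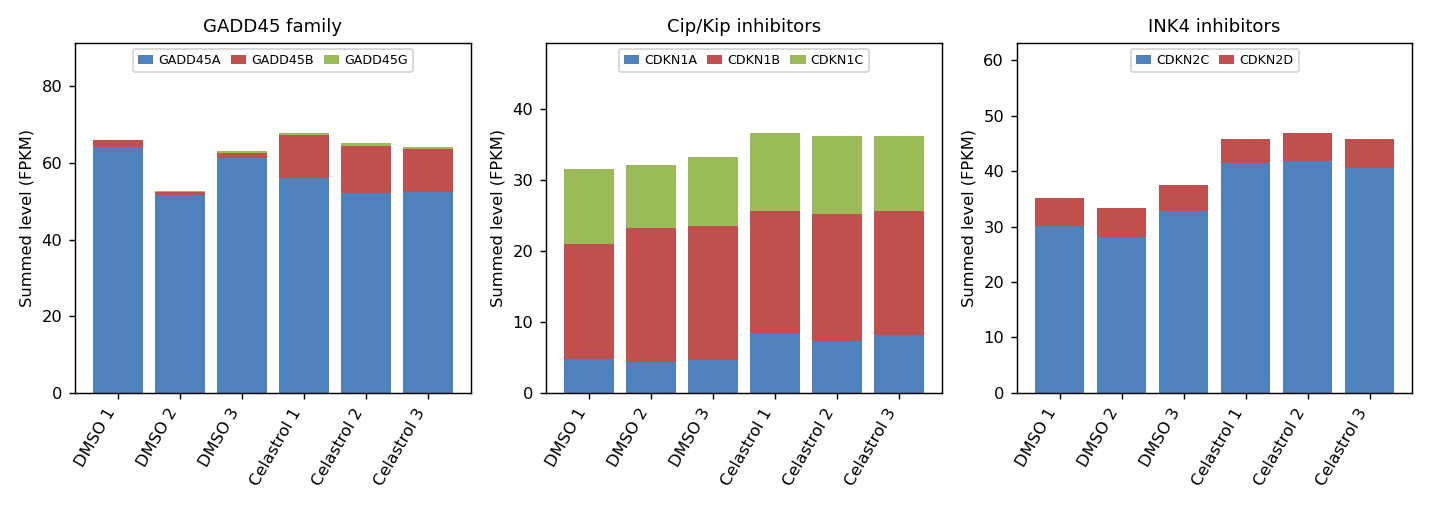
Summed level in FPKM (y axis, from 0) of the GADD45 genes (left), the Cip/Kip inhibitors (middle) and the INK4 inhibitors (right) in each library, stacked by gene. GADD45B is a thin band in the DMSO libraries and 16.6 to 18.6% of the bar in the celastrol libraries, and CDKN2C is most of the right-hand bars.

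GADD45GIP1 (chromosome 19, 12953119 to 12957236, minus strand) encodes a protein first known for binding GADD45 proteins, which is also a part of the large subunit of the mitochondrial ribosome. It had 38.8, 35.1 and 43.3 FPKM with celastrol and 26.1, 25 and 27.3 with DMSO. All celastrol libraries were above all DMSO libraries, and the celastrol libraries were the more scattered. GADD45GIP1 rose by a log2 fold change of 0.57 (SE 0.0897, adjusted p = 0.00368), from 26.1 ± 1.12 to 39.1 ± 4.12 FPKM.

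CDKN1A (chromosome 6, 36676460 to 36687339, plus strand) encodes p21, the Cip/Kip inhibitor that DNA damage and other stresses can raise. Its celastrol libraries lay at 8.50, 7.29 and 8.11 FPKM and its DMSO libraries at 4.83, 4.41 and 4.65. The groups were apart and each was tight, with a coefficient of variation of 7.77% with celastrol and 4.56% with DMSO. The mean went from 4.63 ± 0.211 to 7.96 ± 0.619 FPKM, so CDKN1A rose 1.72-fold. On the log2 scale the change was 0.77 (SE 0.0864, adjusted p = 0.000973). The long noncoding RNA gene DINOL, which overlaps CDKN1A on the other strand, averaged 0.0211 FPKM with celastrol and was listed at 0 in the DMSO libraries. The labels do not say whether the libraries kept strand, and without strand the reads of genes that overlap on opposite strands cannot be told apart.

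CDKN1B (chromosome 12, 12715058 to 12722371) encodes p27, which holds back cyclin E and CDK2 in resting cells and is mostly controlled by protein breakdown. It had 17.1, 18 and 17.5 FPKM with celastrol and 16.2, 18.8 and 18.9 with DMSO, and the groups overlapped. Its log2 fold change was -0.03 (95% interval -0.22 to 0.15, adjusted p = 0.783), and the sign turned when libraries were rescaled to TPM (0.21) or to listed reads (0.06). CDKN1C (chromosome 11, 2883213 to 2885773, minus strand) encodes p57, the imprinted member of the family. It had 11, 10.9 and 10.7 FPKM with celastrol and 10.6, 8.87 and 9.66 with DMSO, so the groups were apart by a narrow gap. Its log2 fold change was 0.16 (95% interval -0.03 to 0.35, adjusted p = 0.172). The gene passed as higher under TPM (0.40, adjusted p = 0.00485) and when scaled to listed reads (0.26, adjusted p = 0.0335).

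The summed Cip/Kip level was 36.3 ± 0.250 FPKM with celastrol and 32.3 ± 0.826 with DMSO. CDKN1B stayed the largest share, at 48.2 ± 1.48% with celastrol and 55.6 ± 3.79% with DMSO. CDKN1A made up 23.2, 20.2 and 22.4% of the sum in celastrol replicates 1 to 3 and 15.3, 13.8 and 14.0% in DMSO replicates 1 to 3. The share of CDKN1C was 29.9 ± 0.400% against 30.1 ± 2.98%.

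CDKN2C (chromosome 1, 50960745 to 50974633, plus strand) encodes p18, an INK4 protein that binds CDK6 and CDK4, and it was the second most abundant of the 10 genes. Its celastrol libraries held 41.4, 41.8 and 40.5 FPKM and its DMSO libraries 30.1, 28.2 and 32.9. The celastrol libraries were close together and all above the DMSO libraries. CDKN2C rose by a log2 fold change of 0.44 (SE 0.0751, adjusted p = 0.00498), from 30.4 ± 2.37 to 41.2 ± 0.671 FPKM. CDKN2D (chromosome 19, 10566462 to 10569059, minus strand), which encodes the related p19, had 4.34, 5.01 and 5.38 FPKM with celastrol and 5.04, 5.09 and 4.56 with DMSO. The groups overlapped, with a log2 fold change of 0.00 (95% interval -0.24 to 0.24, adjusted p = 1.0) that lay above 0 under TPM (0.24) and when scaled to listed reads (0.10). The other INK4 genes, CDKN2A and CDKN2B, had 0 reads in all 6 libraries, which allows up to 0.0515 and 0.0549 FPKM in a library at a limit of 3 reads.

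CDKN3 (chromosome 14, 54396849 to 54420218) encodes a phosphatase that acts on CDK2, and its transcript is known to peak in dividing cells. It lay at 11.5, 13.2 and 14.5 FPKM with celastrol and at 11, 12.6 and 11.2 with DMSO. The groups overlapped, and the log2 fold change of 0.16 did not pass (95% interval -0.07 to 0.40, adjusted p = 0.259). Under TPM it was 0.41 and passed (adjusted p = 0.0162).

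In all, 9 of the 10 members passed the minimum mean of 1 FPKM. Of these, 4 were past the threshold as higher and 0 as lower: CDKN1A, GADD45GIP1 and CDKN2C, and GADD45B, which its choice put there. For comparison, 15.3% of all 12685 genes tested were called higher and 14.2% lower. The groups were apart for 5 of the 9, each with celastrol above, where 25.3% of all genes tested were apart in that direction and 22.0% in the other. Nothing is read from these counts, since the same contrast chose GADD45B and its place among them is no test of it. The median log2 fold change of the 9 was 0.16, beside 0.02 over all genes tested. Scaling moved that background: the median of all genes was 0.26 under TPM, with 86.6% of calls higher, and 0.12 both when scaled to listed reads and with limma-voom, with 70.0 and 71.4% higher, beside 52.0% as deposited. CDKN1A, GADD45GIP1 and CDKN2C kept their direction and call under each of the 15 alternatives tried.

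**Figure D3:**
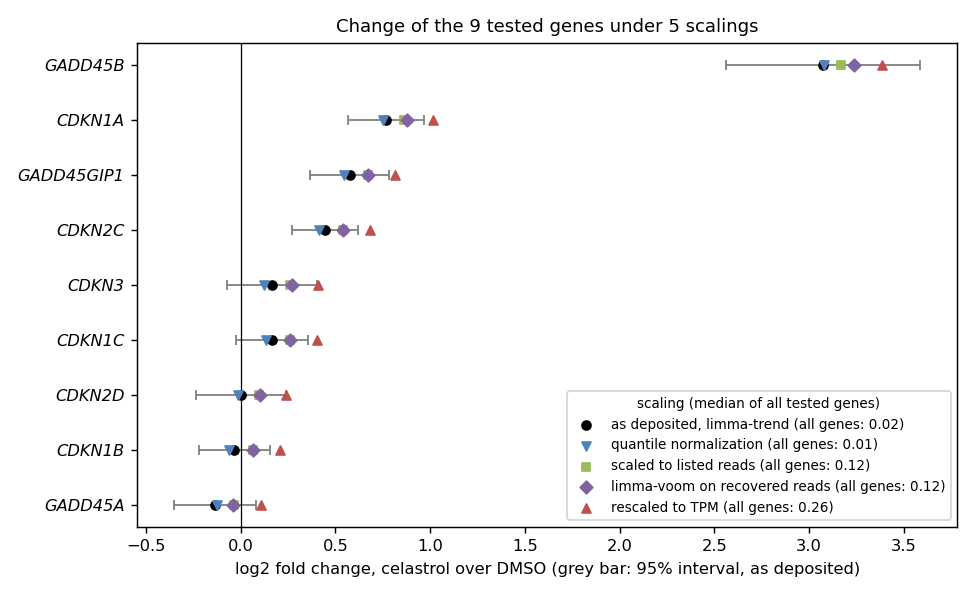
log2 fold change of celastrol over DMSO (x axis) for the 9 tested genes under 5 scalings; the grey bar is the 95% interval as deposited, and the legend gives the median over all tested genes under each scaling. TPM places each gene farthest to the right, and GADD45A, CDKN1B and CDKN2D lie on both sides of 0.

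By the smallest root mean square difference over the 6 libraries, between log2 values centred on each gene's mean, the protein-coding genes most like GADD45B were TEX19 (0.31), IER5L (0.39), NKG7 (0.39), TMEM158 (0.45) and HBEGF (0.45), out of 10071. With 2 treatments this measure depends largely on the size of the treatment difference, which chose GADD45B. Nothing is read from the likeness of these 5 genes. TMEM158 was far more abundant than the rest, at 156 ± 11 FPKM with celastrol and 30.6 ± 1.78 with DMSO. HBEGF, an EGF receptor ligand, lay at 1.97 ± 0.331 against 0.279 ± 0.0302 FPKM. Those most like CDKN1A were EGFL7 (0.04), TCTN2 (0.04) and FAM189B (0.04). EGFL7, a secreted factor of the vessel wall, had 57.1 ± 4.39 FPKM with celastrol and 31.8 ± 1.58 with DMSO.

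The labelled cell type was set beside marker genes. Myeloid genes were sparse, with 8 of 18 tested, 4 of them lower with celastrol, and a summed level of 53.2 to 58.2 FPKM against 77.8 to 89.3. SPI1, a myeloid transcription factor, stood at 22.3 ± 2.23 FPKM under celastrol against 17.9 ± 3.73 and did not pass (limma-trend adjusted p = 0.13). SPI1 passed as higher under TPM (0.0116), with limma-voom (0.0115) and without DMSO replicate 1 (0.0169). CD33 stood at 1.52 ± 0.231 against 1.68 ± 0.214 and did not pass (adjusted p = 0.611), while MPO had 0 to 2 reads per library and CD34 and HLA-DRA had 0. Erythroid genes were abundant, with 15 of 16 tested, and 11 of those were lower with celastrol. Of the megakaryocyte list 3 of 8 were tested, of the lymphoid list 3 of 12 and of the epithelial and stromal list 4 of 10, and GP9, PF4, CD8A, MS4A1 and LUM had 0 reads throughout. The summed level of the erythroid list was 685 to 755 FPKM with celastrol and 845 to 904 with DMSO. KLF1, an erythroid transcription factor, fell from 104 ± 8.03 to 44.1 ± 7.29 FPKM. RHAG lay at 290 ± 5.96 and 261 ± 12.4 FPKM. The part of these marker differences in the changes of the members was not tested. In bulk RNA fewer cells of a type and less RNA per cell cannot be told apart. The reads recovered from FPKM for the listed genes totalled 15231742 to 16231066 per library with celastrol and 13549187 to 15410904 with DMSO.

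The genes around these members were described from 10 lists that leave the members out. Their counts stand against the shares of all genes tested, which were 15.3% higher and 14.2% lower as deposited, 41.5 and 6.41% under TPM, and 23.8 and 10.2% when scaled to listed reads. Of the binding partners of GADD45 proteins and the p38 and JNK cascade, 3 of 22 tested were higher and 7 lower (median 0.01), which became 10 higher and 2 lower under TPM. MAP3K4, the kinase that GADD45 proteins activate, fell from 13.8 ± 0.617 to 9.83 ± 1.01 FPKM (log2 fold change -0.49, adjusted p = 0.00763), a call lost under TPM (0.0873). MAPK14, the main p38 kinase, rose from 17.4 ± 0.546 to 21.2 ± 0.729 FPKM (adjusted p = 0.0155), which no longer passed when celastrol replicate 2 (0.0698), celastrol replicate 3 (0.0512) or DMSO replicate 3 (0.0534) was left out. DUSP1, a phosphatase that switches p38 and JNK off, fell from 10.4 ± 0.637 to 7.15 ± 0.572 FPKM. NPM1, a nucleolar partner of GADD45A, fell from 342 ± 28.0 to 201 ± 11.3 FPKM, and PCNA did not pass, at 109 ± 4.66 against 103 ± 5.83 FPKM (adjusted p = 0.428), though it did under TPM (0.0134).

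Among the cyclins and kinases that the inhibitors act on, 1 of 20 tested was higher and 4 were lower (median -0.08), and 8 and 2 under TPM. CDK4, a partner of CDKN2C, fell from 47.0 ± 1.49 to 33.5 ± 2.17 FPKM (log2 fold change -0.49, adjusted p = 0.00293). CDK6 lay at 5.64 ± 0.610 and 6.03 ± 0.581 FPKM (adjusted p = 0.540). Of the D-type cyclins, CCND2 fell from 4.87 ± 0.0944 to 3.06 ± 0.243 FPKM (adjusted p = 0.00240), while CCND3, the most abundant, stood at 53.9 ± 1.74 and 51.3 ± 4.81 (adjusted p = 0.533) and CCND1 at 2.59 ± 0.436 and 2.17 ± 0.265 (adjusted p = 0.303). CCND3 passed as higher under TPM (0.00964). CCNE1, the cyclin that works with CDK2, lay at 8.99 ± 0.257 with celastrol and 11.9 ± 1.36 with DMSO (adjusted p = 0.0164), which no longer passed under TPM (0.195) or when celastrol replicate 1 or 2 or DMSO replicate 3 was left out (0.0541 to 0.0567). CDC25C, a phosphatase that activates CDK1, lay at 8.03 ± 0.592 and 10.2 ± 0.664 FPKM (adjusted p = 0.0217), a call lost under 7 of 15 alternatives (adjusted p up to 0.421). CDK2 and CDK1 did not pass, at 21.3 ± 1.79 against 22.2 ± 0.225 and 51.0 ± 0.616 against 43.4 ± 7.61 FPKM (adjusted p = 0.547 and 0.155). CDK1 passed as higher under TPM (0.0174), with limma-voom (0.0157) and without DMSO replicate 2 (0.0164).

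Downstream of the kinases, 1 of 18 tested genes of RB and E2F was higher, E2F6 with a log2 fold change of 0.38, and 1 was lower, MYBL2 with -0.55 (median -0.07), or 6 and 1 under TPM. With celastrol replicate 2 left out, E2F6 no longer passed (adjusted p = 0.0547). Of the replication genes of G1/S, 1 of 20 was higher and 6 were lower (median -0.13). CDT1, a licensing factor, fell from 134 ± 8.51 to 70.3 ± 10.3 FPKM, and TYMS, which makes thymidylate, from 34.6 ± 1.6 to 23.7 ± 1.92. CDC45 lay at 85.2 ± 9.28 and 111 ± 7.27 FPKM (adjusted p = 0.0210), a call lost under 6 of 15 alternatives (adjusted p up to 0.248). The G1/S counts were 8 higher and 2 lower under TPM and 4 and 4 when scaled to listed reads, where the counts of all genes moved in the same direction. Of the mitotic genes of G2/M, 5 of 23 were higher and 1 lower (median 0.14), or 16 and 1 under TPM. BUB1 rose from 22.2 ± 1.65 to 30.4 ± 1.95 FPKM, and AURKB fell from 31.7 ± 2.47 to 21.6 ± 1.14. HMMR lay at 31.3 ± 0.879 and 21.1 ± 4.93 FPKM (adjusted p = 0.0223), a call lost under 5 of 15 alternatives (adjusted p up to 0.0760). MKI67, a general mark of dividing cells, did not pass, at 19.4 ± 2.02 against 18.5 ± 0.565 FPKM (adjusted p = 0.632), but passed as higher under TPM (0.0389).

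Of the genes that break down or bind the inhibitor proteins, 4 of 19 were higher and 3 lower (21.1 and 15.8%, near the shares of all genes; median -0.01), or 9 and 1 under TPM. CKS2, a small subunit of cyclin-dependent kinases, rose from 73.7 ± 1.15 to 122 ± 10.9 FPKM. UBAC1 and RNF123 form a ligase that breaks down p27. UBAC1 fell from 84.5 ± 1.84 to 62.0 ± 3.73 FPKM, and RNF123 lay at 6.83 ± 0.303 and 8.74 ± 0.892 (adjusted p = 0.0276), a call lost under 8 of 15 alternatives (adjusted p up to 0.355).

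Other stress-response genes moved in both directions. Of the GADD-named and immediate early genes, 7 of 18 were higher and 5 lower (median 0.22), or 10 and 3 under TPM. IER3 rose from 12 ± 0.283 to 39.2 ± 9.93 FPKM and IER5 from 18.7 ± 1.26 to 33.9 ± 1.68. DDIT3, also called GADD153, fell from 59.5 ± 1.93 to 17.7 ± 6.01 FPKM. PPP1R15A, also called GADD34, and named here after its values were seen, lay at 41.6 ± 3.88 FPKM with celastrol and 53.7 ± 6.92 with DMSO (adjusted p = 0.0455), a call lost under 8 of 15 alternatives (adjusted p up to 0.342). Of the NF-kappaB and TGF-beta response genes, 5 of 19 were higher and 2 lower (median 0.12), or 10 and 2 under TPM. ID2, an inhibitor of basic helix-loop-helix factors, rose from 6.04 ± 0.278 to 16.6 ± 1.98 FPKM. TNFAIP3, an NF-kappaB target that limits the pathway, fell from 8.71 ± 0.251 to 3.06 ± 0.308 FPKM.

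Of the FOXO factors and other growth-inhibiting genes, 3 of 12 were higher and 1 lower (median 0.22), or 8 and 1 under TPM. TXNIP, an inhibitor of thioredoxin and glucose uptake, rose from 79.5 ± 7.13 to 130 ± 16.1 FPKM. FOXO3, a transcription factor that can induce CDKN1B and GADD45A, fell from 9.29 ± 0.164 to 6.16 ± 0.448 FPKM. TOB1 lay at 13.2 ± 0.679 and 11 ± 0.273 FPKM (adjusted p = 0.0279), a call lost under 6 of 15 alternatives (adjusted p up to 0.113), among them the fit with a replicate block (0.0511). Of the large mitochondrial ribosomal subunit, where the GADD45GIP1 protein sits, 10 of 52 were higher and 6 lower (median 0.09), or 32 and 2 under TPM. MRPL51 and MRPL55 rose by log2 fold changes of 0.62 and 0.49, and MRPS30 fell by 0.51 on the log2 scale.

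**Figure D4:**
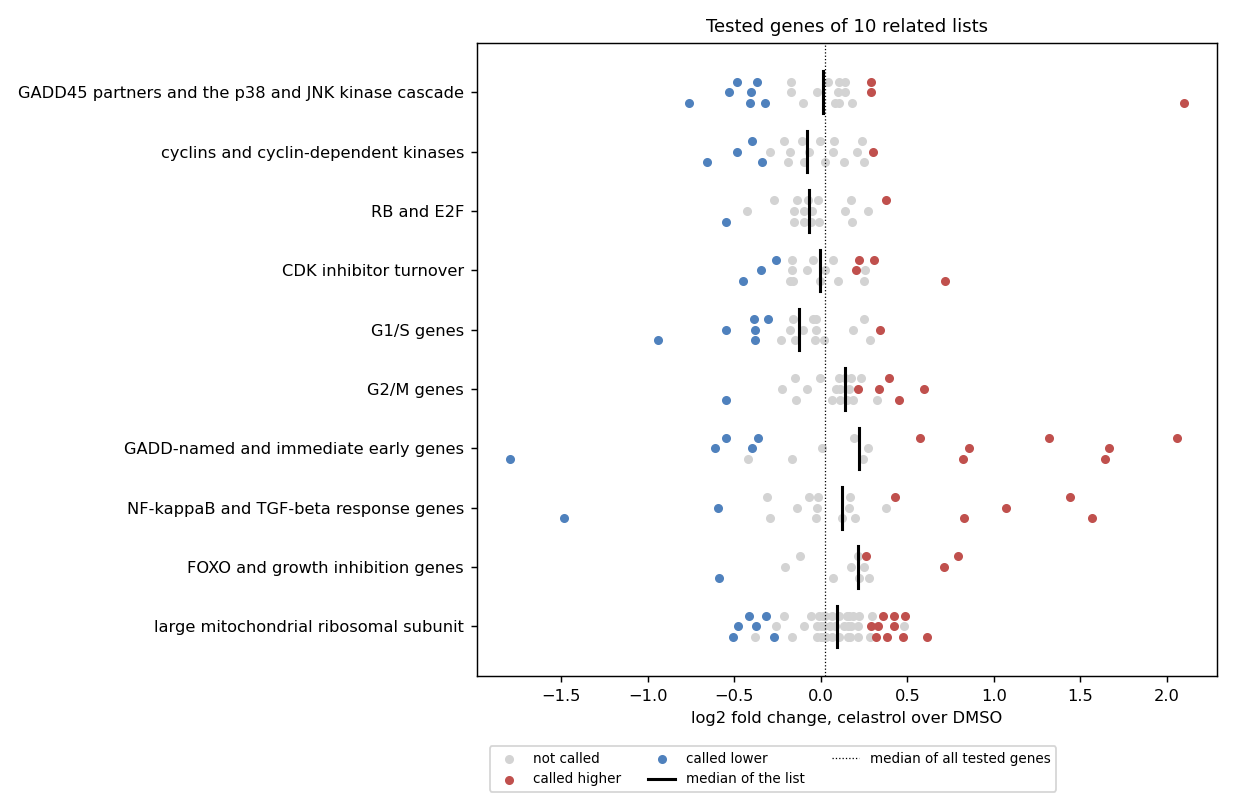
log2 fold change of celastrol over DMSO (x axis) for the tested genes of the 10 lists (rows); red and blue points were called higher and lower, grey points were not called, black bars are list medians and the dotted line is the median of all tested genes. Each list has called genes on both sides of 0, and the medians lie between -0.13 and 0.22.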

How the data were processed

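The deposited file gives FPKM for each gene and library, made by the authors with HISAT2 2.0.5 and featureCounts 1.5.0-p3 on GRCh38 (hg38), per the submitters' processing notes; their settings are not in the labels. All 58735 identifiers and positions matched GENCODE release 29. FPKM times gene length came out as whole reads, to 0.001 of a read, in 100% of nonzero entries, and these reads were used where counts are given. The total the authors divided by was 1.04 to 1.05 times these reads with celastrol and 0.963 to 0.994 times with DMSO, which lowers celastrol relative to scaling by listed reads.

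Tests used limma 3.58.1 in R 4.3.3: limma-trend on log2(FPKM + 0.1), genes with a mean of at least 1 FPKM over the 6 libraries, treatment as the single term, two-sided, Benjamini-Hochberg adjustment over all 12685 genes tested, threshold 0.05. The limma-trend fit alone was tried on simulated reads, with a common spread for all genes and no difference in scaling between treatments. That simulation does not bear on the choice of scaling. Means, SD and folds are of FPKM; intervals are limma's 95% intervals. Pairs of libraries within a treatment differed by 4.01 to 13.4 in chi-square per gene, so none repeated another. Alternatives were 2 pseudocounts, 2 filters, TPM, listed reads, quantile normalization, limma-voom, a replicate block and each library left out.

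The members, lists and tests were chosen with earlier results of these data known. Text names all members, up to 3 called genes per list by size of change with a higher mean of at least 5 FPKM, a fixed set of cell cycle genes and markers, and the genes of nearest pattern: 5 for GADD45B and 3 for any other called member changed at least 1.5-fold. Some items under this rule are not reported here.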

Additional observations from a re-analysis of the deposited data

How the results depend on the processing

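As deposited, 1947 genes were higher and 1797 lower. Rescaling moved these counts, to 5266 and 813 under TPM, to 3024 higher when scaled to listed reads and to 3650 higher with limma-voom on recovered reads. Leaving out 1 library at a time gave 1125 to 1937 higher and 987 to 1767 lower genes, with the fewest without DMSO replicate 3 (1125 and 987); without celastrol replicate 2 there were 1128 and 1129, and without celastrol replicate 3 there were 1228 higher. Of the 9 tested members 4 were higher in each of these (GADD45B, chosen for its increase, is 1 of them) and 0 to 1 lower, the 1 being GADD45A without DMSO replicate 2; TPM called 6 higher and listed reads 5. Over 135 values of the members, 119 kept their direction and side of the threshold, 4 newly passed and 12 turned sign. The turns were in GADD45A under TPM (0.11), in CDKN1B under TPM (0.21), listed reads (0.064) and limma-voom (0.0654) and with 1 library left out (-0.1045 to 0.0046), and in CDKN2D, whose log2 fold change was 0.00, under a pseudocount of 1 (0.0005), TPM (0.24), listed reads (0.0962) and limma-voom (0.1029) and with 1 library left out (-0.0673 to 0.0841). Other turns were in CDK2 (0.17, 0.0309 and 0.0309) and CDK6 (0.14, 0.0002 and 0.0006) under TPM, listed reads and limma-voom, in CCND3 with 1 library left out (-0.0032 to 0.1294) and in CD33 under TPM (0.0921). The cause of these differences was not tested. Replicate numbers did not pair the libraries: same-numbered libraries had correlations of deviations of -0.0156, -0.0326 and 0.0339 over 12685 genes. With the replicate block 1776 genes were higher and 1617 lower, and CDKN1A, GADD45GIP1 and CDKN2C remained higher. GADD45G, at 1 to 16 reads, was too shallow for its difference to be tested above the minimum level.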
